A study of Homo sapiens with 8 samples.

Results

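The transcripts described here encode the proteasome: its subunits, its activators, the factors that assemble it, and the transcription factor and protease that control its genes. They were chosen by symbol from the gene table, taking every PSMA to PSMG gene with a number and, in addition, POMP, NFE2L1, DDI2, ADRM1 and SEM1. This gave 53 of the 61806 genes in the table. Of these, 51 had at least 10 counts in at least 4 libraries and were tested among 14893 genes. The study examined human N/TERT-1 cells, a line of epidermal keratinocytes immortalized in culture, with a wild-type (WT) genotype. Cells received ethanol, the solvent, as control, or O/A, a mixture of oligomycin, which blocks the mitochondrial ATP synthase, and antimycin A, which blocks respiratory complex III. The study's legend gives a treatment of 4 hours, and there were 4 mRNA-seq libraries in each group. The labels call these biological replicates but give no culture, date, dose or time, so p-values measure the spread between these samples of 1 line.

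The proteasome degrades proteins tagged with ubiquitin. Its 20S core is a barrel of α rings, which gate the entrance, and β rings, some of whose subunits carry the proteolytic sites. The 19S regulatory particle caps the core: its base holds the ATPases that unfold substrates and the receptors that bind ubiquitin, and its lid holds the deubiquitinase that removes the tag. Immune signals exchange catalytic subunits and add the PA28αβ activator to form immunoproteasomes, and dedicated chaperones guide assembly of core and base. When the proteasome is inhibited, the transcription factor NRF1 (gene NFE2L1), a protein of the endoplasmic reticulum that DDI2 cleaves into its active form, is known to activate the genes of many subunits together.

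Total counts ran from 17210404 to 20999927 in ethanol libraries and from 17689760 to 19263046 in O/A libraries. The 53 genes took between 0.607% and 0.632% of the counts of each library. All 8 keratinocyte markers checked were expressed, from TP63 at a mean of 27.7 FPKM to KRT5 at 1433 FPKM in ethanol, and KRT5 (log2 fold change -0.30) and SFN (-0.28) were called lower in O/A. Of 13 markers of fibroblasts, melanocytes, leukocytes and endothelium, 10 had at most 6 counts in any library. The others were COL1A1 (376 to 557 counts), PMEL (17 to 45 counts) and the leukocyte marker CD68 (15 to 33 counts), which was called higher in O/A. In bulk RNA, fewer cells and less RNA per cell cannot be told apart.

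Proteasome subunit transcripts kept nearly the same level after O/A. A gene was called higher or lower where edgeR's quasi-likelihood test gave a Benjamini-Hochberg adjusted p of 0.05 or less over all tested genes and the absolute log2 fold change exceeded 0.25, which is a change of +18.9% or -15.9%. Of 51 tested members, 2 were called higher in O/A (3.92%, against 15.8% of all tested genes), and these were the regulators NFE2L1 and DDI2. Another member, the assembly chaperone PSMG3, was called lower (1.96%, against 18.9% of all tested genes). Among the 49 tested subunits, activators and assembly factors, none was called higher and 1 was called lower by edgeR, while 11 had an adjusted p of 0.05 or less with a positive fold change and 5 with a negative one. Such an adjusted p, in either direction, was found for 53.7% of all tested genes. Unadjusted p was under 0.05 for 20 of the 49. The share of all tested genes with an unadjusted p under 0.05 was not computed, so such counts cannot be set against it. DESeq2 made the same 3 calls.

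The members' fold changes were small and also precisely measured. Their median absolute log2 fold change was 0.05, against 0.20 over all tested genes, and their median standard error (SE) was 0.03, against 0.07. For 43 of 51 members (84.3%) the whole 95% interval of the log2 fold change lay between -0.25 and 0.25, which held for 29.4% of all tested genes. Adjusted p was 0.05 or less for 18 members (35.3%, against 53.7% of all tested genes), 13 with positive and 5 with negative fold changes. In 10 members (19.6%) every O/A library lay above every ethanol library, against 22.8% of all tested genes. Every O/A library lay below every ethanol library in 6 members (11.8%, against 24.8%). The lowest count of any tested member in any library was 58, so members passed the count filter in both groups. The central 50% of members' log2 fold changes ran from -0.02 to 0.08, and that of all tested genes from -0.22 to 0.19.

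**Figure D1:**
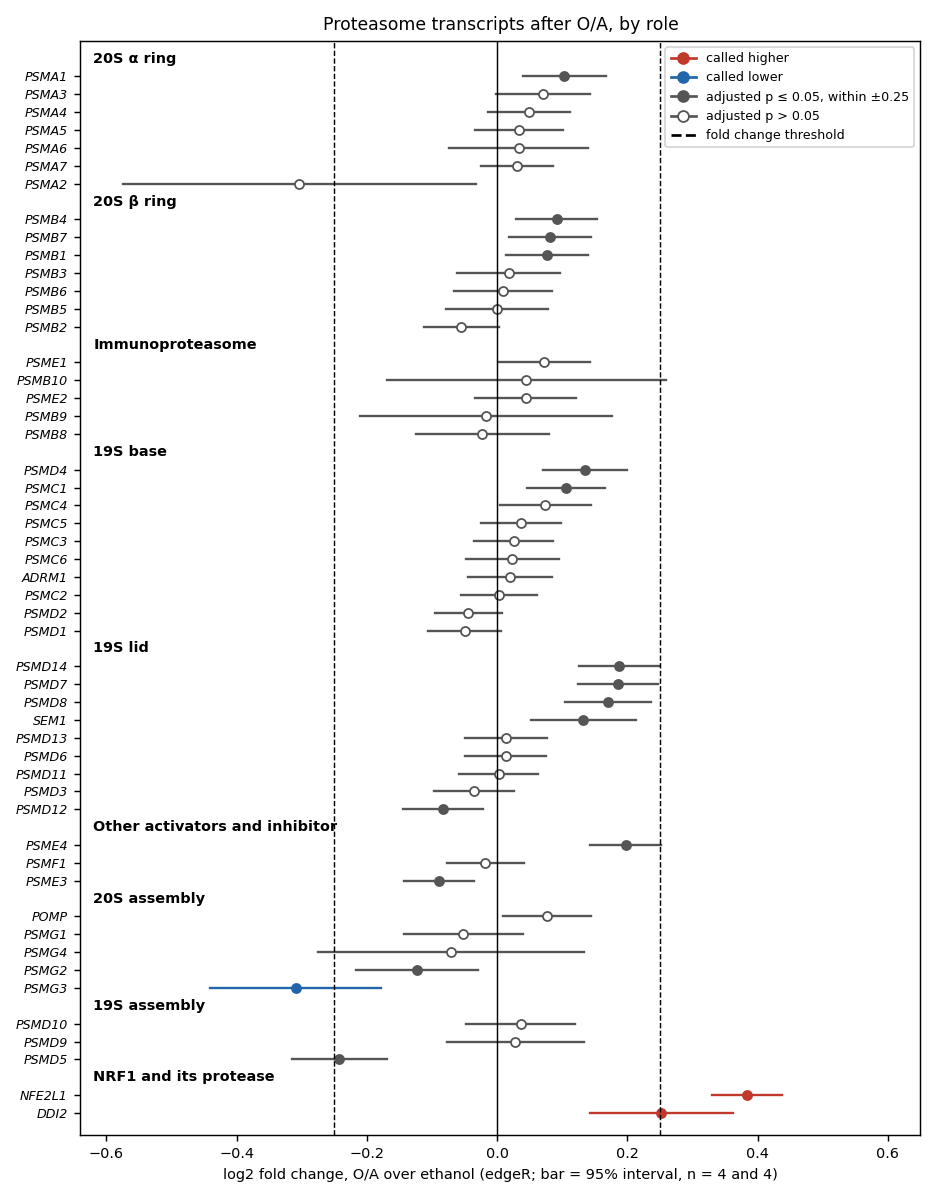
Log2 fold change of each tested member, O/A over ethanol, with its 95% interval (edgeR, 4 libraries a group), grouped by role. Filled points have an adjusted p of 0.05 or less, red and blue mark genes called higher and lower, and dashed lines mark the fold change threshold of 0.25. Only NFE2L1, DDI2 and PSMG3 pass both criteria, and 43 of 51 intervals lie inside the dashed lines.

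Levels differed far more between members than between treatments. Deposited FPKM values, which divide counts by library total and by the length of all exons of a gene, were used for comparisons between genes. That length exceeds the main transcript unevenly, with 8378 against 1434 bases for PSMA2 and 4528 against 4426 for PSMB2. The order of genes given here therefore holds for this measure only. In ethanol the α subunit PSMA7 had the highest FPKM of the members, at 137.5 ± 4.50 (SD, n = 4). PSMD2, the Rpn1 scaffold of the 19S base, followed at 103.8 ± 2.10. In counts PSMD2 was above PSMA7, with 8702 to 10554 per library against 4179 to 4832. The 7 constitutive β subunits lay between 43.5 and 81.8 FPKM. In their order, PSMB1, PSMB6 and PSMB5 overlapped across the ethanol libraries, and the others were separated from the next. Immunoproteasome β subunits were lower in FPKM, with PSMB8 at 10.8, PSMB10 at 4.25 and PSMB9 at 2.96. The PA28 subunits PSME1 and PSME2 were at 50.1 and 24.0 FPKM. The testis form of the α4 subunit, PSMA8, and the thymus form of the β5 subunit, PSMB11, had 0 or 1 count in every library and were not tested.

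The α ring spanned the widest range, from PSMA7 down to PSMA2 at 0.518 ± 0.0378 FPKM in ethanol, although a 20S core holds the α subunits in equal number. The main annotated PSMA2 transcript is 1434 bases long, while its FPKM divides by 8378 exonic bases. For PSMA6 these lengths are 1023 and 6506 bases. Of the main PSMA2 transcript, 100% lies in exons of another listed gene on the same strand, ENSG00000256646, which had 3 to 12 counts per library. PSMA6, the next lowest at 4.99 FPKM, shares 81.4% of its main transcript with ENSG00000258790 on the same strand, which had 4 to 14 counts. Pseudogenes of PSMA6 held counts equal to 7.93% of those of the gene itself. In all, 6 members shared 50% or more of the main transcript with exons of other genes (PSMA2, PSMC1, PSMA6, PSMA1, PSMB10 and PSMD7), and 38 of 53 shared none. For PSMC1 and PSMD7 the shared exons lie on the opposite strand. How the counting treated reads that match more than 1 gene was not given in the sources used here. The levels of these 6 genes are therefore uncertain. Length also affects members whose main transcript shares no exons, such as SEM1 (10668 exonic and 458 main-transcript bases) and PSMG4 (10415 and 785). The parts of overlap and length in the levels were not tested.

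**Figure D2:**
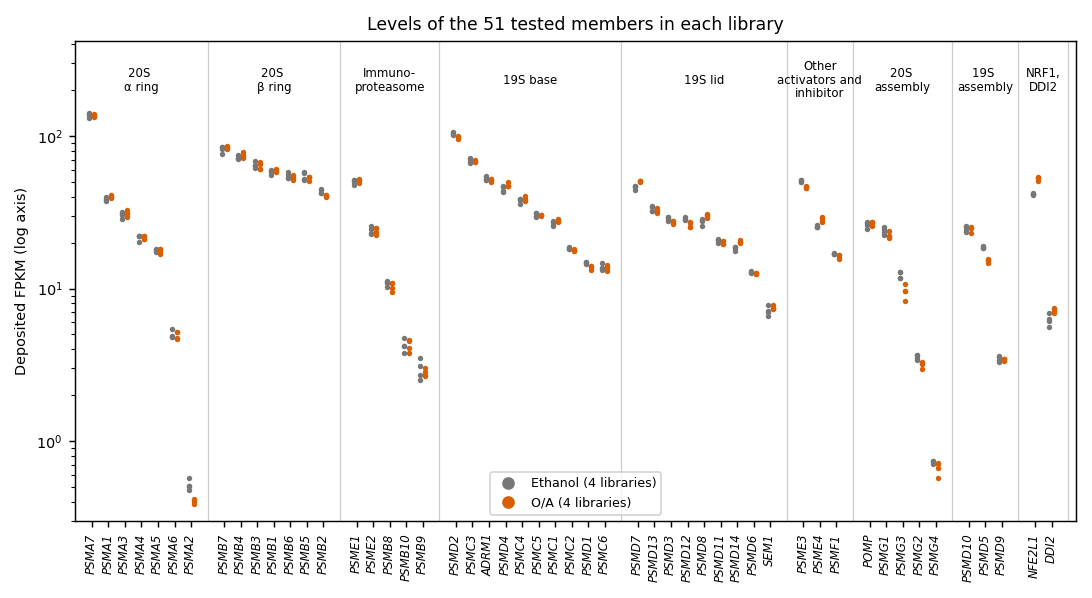
Deposited FPKM on a log axis for the 51 tested members in every library, grouped by role and ordered by the ethanol mean. Grey points are ethanol and orange points O/A, 4 libraries each. The points of the treatments lie close together for nearly every gene while genes range from 0.518 FPKM (PSMA2) to 137.5 FPKM (PSMA7) in ethanol.

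None of the 14 genes of the 20S core was called by edgeR or by DESeq2, while edgeR called 15.8% of all tested genes higher and 18.9% lower. In edgeR, 4 of the 14 had an adjusted p of 0.05 or less, against 53.7% of all tested genes, and 5 an unadjusted p under 0.05. The median log2 fold change over the core was 0.03 with TMM scaling, beside -0.0004 over all tested genes, and it turned to -0.01 when libraries were scaled by total counts alone and in FPKM. In the α ring, the member with the smallest adjusted p was PSMA1, the α6 subunit. Its CPM values (counts relative to the library total after edgeR's TMM scaling) were 114.3, 119.2, 116.0 and 112.5 in ethanol replicates 1 to 4 and 125.6, 120.7, 123.4 and 126.4 in O/A replicates 1 to 4. All O/A libraries lay above all ethanol libraries, by a narrow margin. This was a log2 fold change of 0.10 (SE 0.03, edgeR adjusted p = 0.0047), an increase of 7.42% with a 95% interval from 2.80% to 12.2%. With upper-quartile and total-count scaling its edgeR adjusted p was 0.058 and 0.13. Under both scalings PSMB1, PSMB4 and PSMB7, the other core genes at 0.05 or less, were also above 0.05. In FPKM the PSMA1 groups overlapped, with ethanol at 37.36 to 39.66 and O/A at 39.05 to 40.69. Exons of other genes on the same strand cover 67.0% of the main PSMA1 transcript.

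Among the β subunits, PSMB4 (β7) had the smallest adjusted p. It was measured at 157.8, 150.3, 149.1 and 147.2 CPM in ethanol and at 168.9, 153.6, 160.5 and 161.0 CPM in O/A. The groups overlapped, since the second O/A library lay below the first ethanol library. Its log2 fold change was 0.09 (SE 0.03, edgeR adjusted p = 0.011). PSMB7, which carries the trypsin-like site, and PSMB1 had log2 fold changes of 0.08 and 0.08 with edgeR adjusted p of 0.025 and 0.037. DESeq2 gave PSMB1 an adjusted p of 0.053. The chymotrypsin-like subunit PSMB5 and the caspase-like subunit PSMB6 had log2 fold changes of -0.0002 and 0.0087, with 95% intervals from -0.08 to 0.08 and from -0.07 to 0.08, and PSMB6 was negative with total-count scaling. The remaining 7 core genes other than PSMA2 had log2 fold changes between -0.05 (PSMB2) and 0.07 (PSMA3).

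PSMA2, described here after its values were seen, was the exception in the core, with a wide interval. It had 74, 75, 82 and 89 counts in ethanol and 58, 65, 67 and 59 counts in O/A, so every O/A library was below every ethanol library. Its log2 fold change was -0.30 (SE 0.13, 95% interval -0.58 to -0.03) and did not pass in edgeR (adjusted p = 0.053). It passed in 3 of 16 alternatives that kept the threshold. These were edgeR with total-count scaling (log2 fold change -0.35, adjusted p = 0.026), edgeR with upper-quartile scaling (-0.337, adjusted p = 0.032) and limma on log2(FPKM + 0.1) (-0.29, adjusted p = 0.037). It did not pass in DESeq2 (adjusted p = 0.13) or in edgeR with no count filter (adjusted p = 0.11). The same-strand overlap with ENSG00000256646, 100% of the main PSMA2 transcript, limits its fold change as well as its level. The part of that overlap in the fold change was not tested.

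No gene of the 19S regulatory particle was called among 19 tested, by edgeR or by DESeq2. Of all tested genes, edgeR called 15.8% higher and 18.9% lower. All 19 had a 95% interval within the threshold, which held for 29.4% of all tested genes. In edgeR, 7 of the 19 had an adjusted p of 0.05 or less, against 53.7% of all tested genes, and 8 an unadjusted p under 0.05. Their median log2 fold change was 0.02, turning to -0.02 with total-count scaling and in FPKM. Within this narrow range, subunits of the lid spread most. PSMD14, the Rpn11 metalloprotease that removes ubiquitin from substrates, was measured at 135.2, 134.2, 131.6 and 127.0 CPM in ethanol and at 153.8, 149.6, 149.6 and 147.8 CPM in O/A. No O/A library overlapped with ethanol. The log2 fold change was 0.19 (SE 0.03, edgeR adjusted p = 6.35e-07), an increase of 13.8% (95% interval 9.13% to 18.8%).

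Rpn11 works in the lid as a pair with Rpn8, encoded by PSMD7. PSMD7 went from 122.5 ± 3.47 CPM to 139.2 ± 0.856 CPM (SD, n = 4 each), with a log2 fold change of 0.19 (edgeR adjusted p = 8.95e-07). Of the main PSMD7 transcript, 51.6% lies opposite exons of other genes. Next in size were the lid subunits PSMD8 (Rpn12) at 0.17 and SEM1 (Rpn15) at 0.13, whose ethanol and O/A libraries were separated for PSMD8 and overlapped for SEM1. In the opposite direction, PSMD12 (Rpn5) went from 150.6 ± 2.47 CPM to 142.1 ± 5.17 CPM, a log2 fold change of -0.08 (edgeR adjusted p = 0.018, DESeq2 adjusted p = 0.069). The other 4 lid genes (PSMD3, PSMD6, PSMD11 and PSMD13) had log2 fold changes from -0.04 to 0.01.

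In the base, PSMD4 (Rpn10), a ubiquitin receptor, had the smallest adjusted p. It was measured at 139.5, 129.6, 136.0 and 128.4 CPM in ethanol and at 154.0, 143.3, 143.6 and 144.9 CPM in O/A. The O/A libraries were all higher, the first of them standing apart from the other three. This corresponded to a log2 fold change of 0.14 (SE 0.03, edgeR adjusted p = 0.00033), an increase of 9.82%. In FPKM the PSMD4 groups overlapped, with 46.63 in ethanol replicate 1 and 46.6 in O/A replicate 3. The ATPase PSMC1 (Rpt2) had a log2 fold change of 0.11 (edgeR adjusted p = 0.0022), with 83.2% of its main transcript opposite exons of NRDE2. With total-count scaling the edgeR adjusted p of PSMC1 was 0.086. The other 5 ATPases lay between 0.0028 (PSMC2) and 0.07 (PSMC4), and the scaffolds PSMD1 and PSMD2 at -0.05 and -0.04. ADRM1 (Rpn13), the other ubiquitin receptor of the base chosen by name, had a log2 fold change of 0.02 (95% interval -0.05 to 0.08).

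Summed over their genes, the core and the particle kept nearly the same level. The 14 core genes summed to 1584 ± 44.7 CPM in ethanol and 1628 ± 20.7 CPM in O/A (SD, n = 4 each). Summed levels of the 19 regulatory particle genes were 2915 ± 58.4 and 2979 ± 24.1 CPM. In both sums the fourth ethanol library was the lowest, at 1517 and 2831 CPM, and without it the median log2 fold changes were 0.02 for the core and 0.02 for the particle. 

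**Figure D3:**
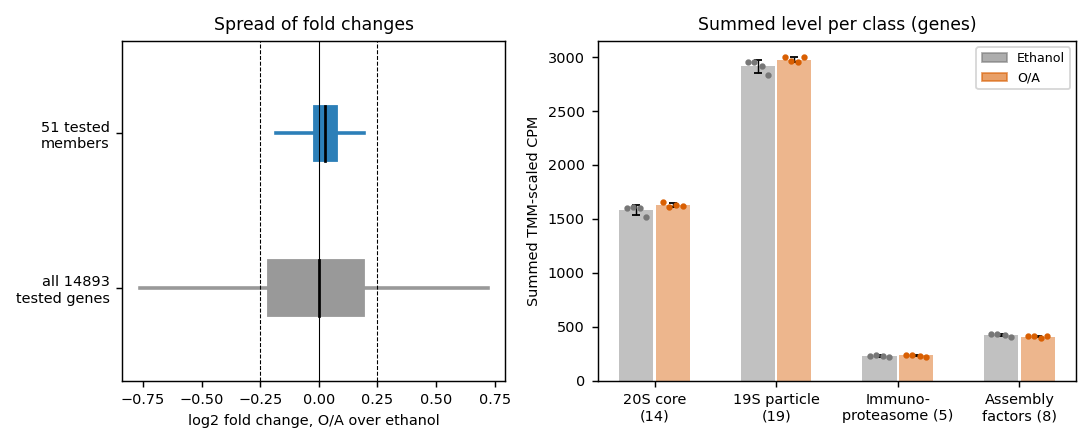
Left, log2 fold changes (O/A over ethanol, TMM scaling) of all 14893 tested genes and of the 51 tested members: line, 5th to 95th percentile, box, 25th to 75th percentile, black bar, median, dashed lines, threshold. Right, summed TMM-scaled CPM per class in each library (points), with the mean (bar) and SD. The members' box is narrow, from -0.02 to 0.08, and class sums in ethanol and O/A lie close together.

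None of the 5 immunoproteasome genes was called by edgeR or by DESeq2, and in edgeR none had an adjusted p of 0.05 or less. Of all tested genes, edgeR called 15.8% higher and 18.9% lower, and 53.7% had such an adjusted p. With only 5 genes, the absence of calls says little about this class. Unadjusted p was under 0.05 for 1 of the 5, PSME1, the α subunit of the PA28 activator. PSME1 was measured at 90.0, 90.1, 87.4 and 83.5 CPM in ethanol and at 91.9, 94.5, 93.2 and 88.9 CPM in O/A. Those ranges overlapped, with a log2 fold change of 0.07 (SE 0.04, edgeR adjusted p = 0.082). Its partner PSME2 was at 0.04. The interferon-inducible catalytic subunits PSMB8, PSMB9 and PSMB10, which replace PSMB5, PSMB6 and PSMB7, had log2 fold changes of -0.02, -0.02 and 0.04. PSMB9 and PSMB10 had 106 to 216 counts per library, and their 95% intervals were accordingly wide (-0.21 to 0.18 and -0.17 to 0.26).

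The activators outside the immunoproteasome went in different directions below the fold threshold. PSME4 encodes PA200, a nuclear activator linked to histone turnover. Its levels were 260.7, 258.2, 259.3 and 268.1 CPM in ethanol and 292.1, 309.5, 291.2 and 307.2 CPM in O/A, with no overlap. That gave a log2 fold change of 0.20 (SE 0.03, edgeR adjusted p = 1.77e-08), an increase of 14.7% (95% interval 10.4% to 19.1%). PSME3, which encodes the nuclear activator PA28γ, went from 256.7 ± 3.53 to 241.3 ± 3.11 CPM (SD, n = 4 each), a log2 fold change of -0.09 (edgeR adjusted p = 0.0037), again with no overlap. PSMF1, the inhibitor PI31, was at -0.02.

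Among the 8 assembly factors, PSMG3 was called lower and PSMD5 lay just inside the fold threshold. PSMG3 encodes PAC3, a chaperone that helps build the α ring. Its TMM-scaled levels were 22.9, 24.8, 24.7 and 22.8 CPM in ethanol and 21.4, 16.6, 19.5 and 19.3 CPM in O/A. Every O/A library was lower, the second most of all and the first close to ethanol. The log2 fold change was -0.31 (SE 0.07, edgeR adjusted p = 7.07e-05), a decrease with a 95% interval from -26.4% to -11.6%. Without the second O/A library it was -0.24 (adjusted p = 0.0027) and no longer called.

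PSMD5 encodes S5b, a chaperone of the 19S base. It was measured at 80.6, 81.8, 79.5 and 81.1 CPM in ethanol and at 69.2, 70.05, 67.5 and 66.3 CPM in O/A. The groups were far apart relative to their spread. The log2 fold change of -0.24 (SE 0.04, edgeR adjusted p = 1.26e-07) fell just short of the threshold of 0.25, and with total-count scaling it was -0.29 and was called lower. PSMG2, the partner of PSMG1 in the first chaperone pair of the α ring, had a log2 fold change of -0.12 (edgeR adjusted p = 0.023, DESeq2 adjusted p = 0.074). The other 5 assembly genes, PSMG1, PSMG4, POMP, PSMD9 and PSMD10, lay between -0.07 and 0.08. The median over the 8 assembly factors was -0.06, and their summed level went from 422.5 ± 11.1 to 408.4 ± 6.33 CPM (SD, n = 4 each). That median was -0.02 without the fourth O/A library.

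The regulators were the members called higher, DDI2 only narrowly. NFE2L1 was measured at 241.7, 237.8, 244.1 and 239.9 CPM in ethanol and at 316.2, 316.7, 320.7 and 303.3 CPM in O/A. Both groups were tight and did not overlap. The log2 fold change was 0.38 (SE 0.03, edgeR adjusted p = 8.26e-18), an increase of 30.5% (95% interval 25.7% to 35.4%), and in FPKM the level went from 41.5 ± 0.566 to 52.5 ± 1.29 (SD, n = 4 each). NFE2L1 passed both criteria under every alternative run that kept the threshold of 0.25, with log2 fold changes from 0.33 to 0.40.

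DDI2 stood at the threshold. Its levels were 75.8, 73.4, 66.4 and 83.5 CPM in ethanol and 85.8, 91.1, 91.9 and 88.4 CPM in O/A. In CPM every O/A library was above every ethanol library, but the ethanol libraries were scattered and the fourth came close to O/A. In FPKM the DDI2 groups overlapped, with 6.95 in ethanol replicate 4 and 6.93 in O/A replicate 1. The log2 fold change was 0.25 (SE 0.05, edgeR adjusted p = 0.00044), an increase of 19.1% (95% interval 10.4% to 28.5%). Under 9 alternatives that kept the threshold it stayed positive with an adjusted p of 0.05 or less but was under 0.25, the lowest being 0.19 in log2(FPKM + 1). Leaving out ethanol replicate 2, ethanol replicate 3 or O/A replicate 3 gave 0.247, 0.206 and 0.244 and ended the call. Exons of RSC1A1 on the same strand cover 20.6% of the main DDI2 transcript.

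**Figure D4:**
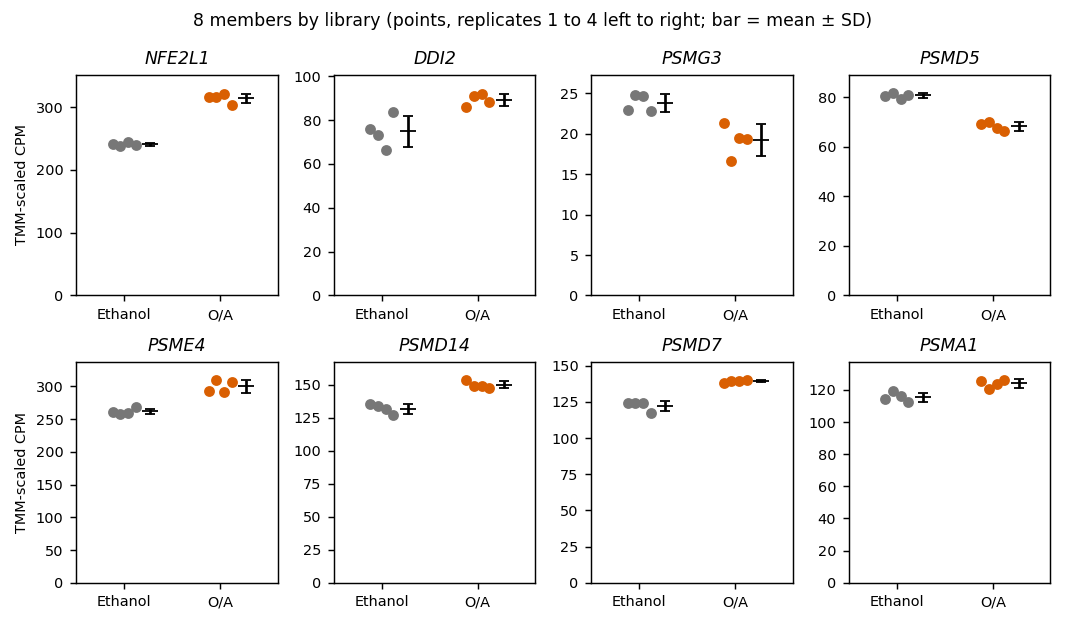
TMM-scaled CPM of 8 members in each library, on axes that start at 0. Points are ethanol (grey) and O/A (orange) replicates 1 to 4 from left to right, and bars give the mean and SD of 4 libraries. NFE2L1 is higher and PSMD5 lower in every O/A library with tight groups, while DDI2 and PSMG3 have more scatter, and PSME4, PSMD14, PSMD7 and PSMA1 are higher by 7.42% to 14.7%.

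NRF1 binds antioxidant response elements, so the promoters of the members were read for the core of that element, TGACNNNGC, on both strands. RefSeq promoter sequences of GRCh38.p14, from 250 bases before to 50 bases after a start site, were found for 47 of 53 members (60 windows). PSMA7, PSMB1, PSMB6, PSMB7, PSMD4 and PSMG3 had no entry. The core stood in 18 of the 60 member windows (30.0%), belonging to 17 genes, and in 13.3% of all 35116 windows. A match of these letters is a description and not a measured site. Of the 17 genes, 2 had an edgeR adjusted p of 0.05 or less with a positive and 3 with a negative fold change. Among the 28 tested members without the core, which include the called NFE2L1 and DDI2, these numbers were 8 and 1. Such an adjusted p, in either direction, was found for 53.7% of all tested genes. The difference between members with and without the core was not tested. The 17 log2 fold changes ran from -0.24 to 0.20 with a median of 0.02, and those of the 28 tested members without the core from -0.30 to 0.38 with a median of 0.03. Another element, the C/EBP-ATF element TGATGNAA that the stress factor ATF4 and its partners bind, stood in 1 of 60 windows (PSMF1) and in 3.62% of all windows. The windows printed here are examples picked by fold change and adjusted p. Left out is SEM1, a positive member with the core (log2 fold change 0.13, edgeR adjusted p = 0.0047). Printed first is the positive member with the smallest adjusted p (PSME4), then PSMD12, PSMG2 and PSMD5 with negative fold changes. The last windows are those of ADRM1, PSMB3, PSMD3 and PSMA4, with adjusted p above 0.05. Each is written on the strand of its gene, 5′ to 3′, with the core in capitals (GC first where it lies on the reverse strand).
PSME4, log2 fold change 0.20, core 34 bases before the start site, minus strand, chr2:53970993-53971053: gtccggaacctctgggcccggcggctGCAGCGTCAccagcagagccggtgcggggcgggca
PSMD12, log2 fold change -0.08, core 165 bases before, minus strand, chr17:67366708-67366768: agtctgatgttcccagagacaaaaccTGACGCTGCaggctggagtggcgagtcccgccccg
PSMG2, log2 fold change -0.12, core 39 bases before, plus strand, chr18:12658673-12658733: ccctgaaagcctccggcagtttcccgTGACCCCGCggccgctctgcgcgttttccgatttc
PSMD5, log2 fold change -0.24, core 134 bases before, minus strand, chr9:120843022-120843082: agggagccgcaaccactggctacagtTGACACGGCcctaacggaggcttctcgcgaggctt
ADRM1, log2 fold change 0.02, core 137 bases before, plus strand, chr20:62302733-62302793: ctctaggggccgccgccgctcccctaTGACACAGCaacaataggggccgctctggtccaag
PSMB3, log2 fold change 0.02, core 104 bases before, plus strand, chr17:38752611-38752671: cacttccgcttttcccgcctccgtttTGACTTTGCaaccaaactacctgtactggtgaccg
PSMD3, log2 fold change -0.04, core 37 bases before, plus strand, chr17:39980744-39980804: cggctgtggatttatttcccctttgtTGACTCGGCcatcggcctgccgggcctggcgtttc
PSMA4, log2 fold change 0.05, core 126 bases before, plus strand, chr15:78540634-78540694: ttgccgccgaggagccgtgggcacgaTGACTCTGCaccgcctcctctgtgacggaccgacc

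Genes that act around the proteasome were read from 4 lists, which were chosen with earlier results of these data known. A list of 15 tested genes covered the processing, partners and turnover of NRF1, and it also included the related factors NFE2L2 and NFE2L3. Of these 15, 8 were called higher (53.3%, against 15.8% of all tested genes) and 1 lower (6.67%, against 18.9%). The median log2 fold change was 0.27. The largest were MAFF and MAFG, small MAF proteins that pair with NRF1 on DNA, at 1.74 (SE 0.04, edgeR adjusted p = 1.11e-35) and 1.47 (SE 0.04, edgeR adjusted p = 1.96e-33). MAFF went from 4.52 ± 0.0739 to 14.7 ± 0.618 FPKM and MAFG from 6.02 ± 0.224 to 16.1 ± 0.420 FPKM (SD, n = 4 each). OGT, a transferase that modifies nuclear and cytosolic proteins with a sugar, followed at 1.10 (SE 0.09, edgeR adjusted p = 4.25e-05). NFE2L2, named after its value was seen, was also among the 8 called higher, at 0.89 (SE 0.03, edgeR adjusted p = 3.37e-31). BTRC, a ubiquitin ligase component named after its value was seen, was the 1 gene called lower, at -0.27. Without ethanol replicate 3, O/A replicate 3 or O/A replicate 4, BTRC was at -0.244, -0.217 and -0.245 and was not called. DDI1, the relative of DDI2, had 0 counts in every library.

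Among the ubiquitin and E1 genes reported here, which are not the whole list, the polyubiquitin gene UBB was called higher. It went from 166.0 ± 5.25 to 233.8 ± 6.81 FPKM (SD, n = 4 each), a log2 fold change of 0.54 (SE 0.03, edgeR adjusted p = 6.71e-23), and every O/A library lay above every ethanol library. The ubiquitin fusion gene RPS27A and the E1 enzymes UBA1 and UBA6, which activate ubiquitin, lay between 0.01 and 0.11 and were not called, and UBA1 and UBA6 turned negative with total-count scaling (-0.0062 and -0.0343).

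Among 19 proteins that work with the proteasome as receptors, deubiquitinases, ligases or cofactors, 3 were called higher (15.8%, the same as the 15.8% of all tested genes). In the other direction 0 were called lower (0%, against 18.9% of all tested genes). Those called higher were ZFAND2A at a log2 fold change of 0.54, AKIRIN2, which brings proteasomes into the nucleus, at 0.48, and PITHD1 at 0.29. PITHD1 was below the fold threshold with total-count scaling (0.244) and in FPKM (0.244 and 0.233 with pseudocounts of 0.1 and 1). The list median was 0.10. Of 11 genes for antigen processing and interferon signalling, 2 were called higher (18.2%, against 15.8% of all tested genes) and 2 lower (18.2%, against 18.9%), shares near those of all genes. STAT2 was at 0.38 and IRF9 at 0.33, the latter falling to 0.195 and losing its call in log2(FPKM + 1). The transcription factor IRF1, known as an activator of immunoproteasome genes, was lower at -0.81 (SE 0.06, edgeR adjusted p = 4.36e-16), from 2.57 ± 0.0920 to 1.42 ± 0.152 FPKM (SD, n = 4 each). The other was NLRC5, at -0.31 and with 86 to 156 counts per library, named after its value was seen, and its call was lost without ethanol replicate 4 (-0.235), O/A replicate 1 (-0.287) or O/A replicate 3 (-0.247) and in DESeq2 (-0.305) and FPKM (-0.288 and -0.111 with pseudocounts of 0.1 and 1). The peptide transporter genes TAP1 and TAP2, which lie beside PSMB8 and PSMB9 in the genome, were at 0.05 and -0.06.

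**Figure D5:**
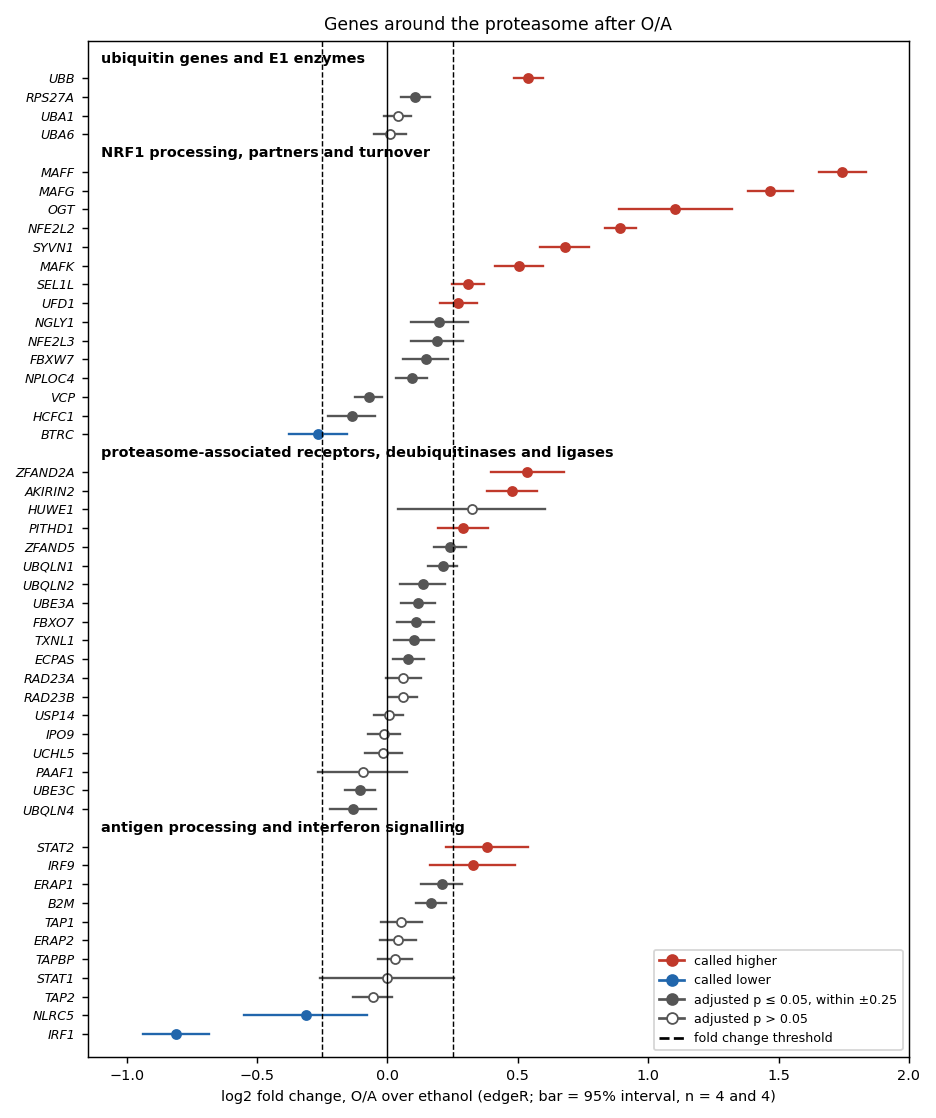
Log2 fold change with its 95% interval (edgeR, 4 libraries a group, O/A over ethanol) of the tested genes in 4 lists around the proteasome, with colours, filled points and dashed threshold lines marking calls and adjusted p. MAFF (1.74) and MAFG (1.47) lie farthest to the right and IRF1 (-0.81) farthest to the left.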

How the data were processed

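Poly(A) mRNA of 8 N/TERT-1 samples was sequenced. Per the labels, the authors' processing notes name HISAT2 2.0.1, HTSeq 0.6.1, DESeq2 and the build GRCh38.p13; the strand setting and annotation release were not given in the sources used here. The deposited table holds whole-number read counts per gene, which the authors made, and FPKM that the authors computed from these counts, the exonic length and the library total, to within 0.005. A second deposited table holds the authors' own comparison (log2 fold changes and p-values) and was not used.

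Counts were tested with edgeR 4.0.16 in R 4.3.3 (TMM scaling, robust quasi-likelihood test, no covariates) on genes that reached 10 counts in 4 or more libraries, with Benjamini-Hochberg adjustment over 14893 genes. Calls required an adjusted p of 0.05 or less and an absolute log2 fold change above 0.25. The procedure was also run on simulated data whose changed genes had absolute log2 fold changes of 0.5 or more, larger than any member's. That run cannot show how well changes near 0.25 are called. Alternatives were DESeq2 1.42.0, other scalings and filters, limma 3.58.1 on log2 FPKM with pseudocounts of 0.1 and 1, libraries left out, a replicate block and other fold thresholds. Libraries of 1 group differed beyond sampling noise (chi-square per degree of freedom 1.76 to 5.71), against 53.3 to 63.1 between groups, so none was a duplicate. Members and lists were chosen with earlier results of these data known. Values per library were given for the called members with the 2 largest changes in each class, or otherwise the member with the smallest adjusted p, and for NFE2L1 and DDI2, and up to 3 called genes were named per other list. PSMA2, BTRC, NFE2L2 and NLRC5, and the genes not called in the lists, were named after their values were seen. Some genes of the ubiquitin list are not reported here. Overlaps used GENCODE v44, whose start and end equalled the table's for all 53 members. Count precision covers counting error only.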

Additional observations from a re-analysis of the deposited data

Results flagged for a closer look

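In 7 of 102 groups of 4 libraries (each of 51 members in each treatment), 1 library stood apart from the other three by Dixon's test at the 95% level, which divides the gap to the nearest library by the group's range. About 1 in 20 groups, 5.1 here, would be flagged by chance. The values are TMM-scaled CPM and none of the 7 groups belongs to a called gene. The fourth ethanol library was low for PSMA4 (139.3, the others 151.6 to 152.6), for PSMB7 (134.9, the others 145.9 to 148.0) and for PSMD7 (117.3, the others 123.9 to 124.4). In the third ethanol library PSMA6 was high at 34.5, the others being at 31.0 to 31.5. PSMD12 was high in the second ethanol library at 154.3, with the others at 149.2 to 149.7. PSMB5 was low in the fourth O/A library at 79.7 (the others 84.3 to 85.0). PSMD4 was high in the first O/A library at 154.0, the others being at 143.3 to 144.9.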

How the results depend on the processing

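The 17 alternatives and 2 other fold thresholds gave 962 recomputed values for single members, of which 840 kept their direction and their side of the threshold. The cause of each change was not tested. NFE2L1 kept its call in all 17 alternatives at the threshold of 0.25, PSMG3 in 16 and DDI2 in 8. Members called higher and lower numbered 1 and 3 with upper-quartile scaling, with total-count scaling and in log2(FPKM + 0.1), 1 and 2 at a mean FPKM of 5 or more and in log2(FPKM + 1), 1 and 1 with no count filter, 13 and 5 with no fold threshold, and 0 and 0 at a log2 threshold of 0.5. The added lower calls were PSMD5 and PSMA2. Genes called higher and lower in the whole table numbered 2350 and 2815, falling to 1097 and 1086 at a mean FPKM of 5 or more, where fewer genes were tested, and to 1191 and 1445 at the 0.5 threshold. Those called higher were 1514 in log2(FPKM + 1) and 3868 with no fold threshold. Leaving out 1 library gave 1 to 2 members higher (1 without ethanol replicate 2, ethanol replicate 3 or O/A replicate 3) and 0 to 1 lower (0 without O/A replicate 2). Scaling moved the median of all genes by at most 0.05, to -0.0458 with total counts. The 20S median was 7e-04 with upper-quartile scaling, -0.0119 with total counts, and -0.0125 and -0.0112 in FPKM with pseudocounts of 0.1 and 1. The 19S median was -0.0223, -0.0224 and -0.021 under total counts and in FPKM with pseudocounts of 0.1 and 1. The assembly median was -0.1069 with total counts, -0.1077 in log2(FPKM + 0.1), and between -0.084 and -0.0243 with 1 library left out.

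Uncalled members near 0 changed sign in 86 of the recomputed values (21 members, none of which was called under the alternative that turned it). With total-count scaling these were PSMA5 -0.011, PSMA6 -0.012, PSMA7 -0.015, PSMB3 -0.028, PSMB6 -0.037, PSMB10 -0.00046, PSMC2 -0.043, PSMC3 -0.0203, PSMC5 -0.0088, PSMC6 -0.022, ADRM1 -0.026, PSMD6 -0.033, PSMD11 -0.043, PSMD13 -0.032, PSME2 -0.0018, PSMD9 -0.017 and PSMD10 -0.0094. With upper-quartile scaling they were PSMA7 -0.0025, PSMB3 -0.015, PSMB6 -0.024, PSMC2 -0.0302, PSMC3 -0.0077, PSMC6 -0.0095, ADRM1 -0.013, PSMD6 -0.0201, PSMD11 -0.031, PSMD13 -0.0198 and PSMD9 -0.0048. In log2(FPKM + 0.1) they were PSMA5 -0.013, PSMA6 -0.012, PSMA7 -0.015, PSMB3 -0.029, PSMB6 -0.038, PSMC2 -0.043, PSMC3 -0.0196, PSMC5 -0.009, PSMC6 -0.022, ADRM1 -0.026, PSMD6 -0.033, PSMD11 -0.043, PSMD13 -0.033, PSME2 -0.0033, PSMD9 -0.016 and PSMD10 -0.0098. In log2(FPKM + 1) they were PSMA5 -0.012, PSMA6 -0.0104, PSMA7 -0.015, PSMB3 -0.028, PSMB6 -0.037, PSMC2 -0.041, PSMC3 -0.019, PSMC5 -0.0088, PSMC6 -0.021, ADRM1 -0.026, PSMD6 -0.0303, PSMD11 -0.042, PSMD13 -0.032, PSME2 -0.0031, PSMD9 -0.013 and PSMD10 -0.0095. At a mean FPKM of 5 or more they were PSMB6 -0.0071, PSMC2 -0.013, PSMD6 -0.0029, PSMD11 -0.013 and PSMD13 -0.0025, and with no filter PSMC2 -0.0025 and PSMD11 -0.0031. PSMB5 was 0.0067 in DESeq2 and 0.0071 with median-ratio scaling. With 1 library left out, the ranges of members that changed sign were -0.0224 to 0.0392 for PSMB5, -0.0904 to 0.0864 for PSMB9, -0.0463 to 0.0176 for PSMB8, -0.0068 to 0.0401 for PSMB6, -0.0059 to 0.0255 for PSMD11, -0.0316 to 0.0048 for PSMF1 and -0.0077 to 0.048 for PSMB3.

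The pathway lists were recomputed under the same 17 alternatives, a choice made after seeing the data. Calls higher ran from 6 to 8 for the NRF1 list, 2 to 4 for proteasome-associated proteins and 1 to 2 for the antigen and interferon list. No named gene called there changed sign, and NFE2L2 was not recomputed on its own. The uncalled UBA1 was -0.0062 with total counts and -0.0063 and -0.0062 in FPKM with pseudocounts of 0.1 and 1. UBA6 was -0.0343, -0.0332 and -0.0311 under these, -0.0216 with upper-quartile scaling and -0.0045 at a mean FPKM of 5 or more.

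Replicate numbers are shared between the groups, but same-numbered libraries did not deviate together (correlations of 0.0389, -0.00212, -0.0226 and 0.0675), and 3 of 8 libraries correlated best with their own number. A fit with the replicate number as a block called NFE2L1, DDI2 and PSMG3, with 5160 genes called in all and 5117 of them shared with the 5165 called without the block, and changed no member's call. Depth limits PSMA2, PSMB9, PSMB10 and PSMG4, which had 58 to 216 counts per library. The 95% intervals of PSMA2, PSMB10 and PSMG4 reached beyond the threshold.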
